A study of Mus musculus with 12 samples.

Results

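The genes that encode the hexokinases and phosphofructokinases, the enzymes of the opening, regulated steps of glycolysis, were described in mouse kidney cortex. The 10 genes were taken by name and fall into 3 families, with 4 hexokinases (Hk1, Hk2, Hk3, Hkdc1), 3 phosphofructokinase subunits (Pfkl, Pfkm, Pfkp) and 3 enzymes that make and break the activator of phosphofructokinase (Pfkfb2, Pfkfb3, Pfkfb4). All 10 were found among the 27412 genes of the deposited table. RNA came from a thin outer slice of kidney cortex of male C57BL/6 mice kept without treatment, whose age is not given in the labels. One group was wild type (WT) and the other carried the gamma-HIF2alphaM3 transgene (TG+, called HIF2aM3 here). Each group had 3 animals, WT 1, 2 and 3 and HIF2aM3 17-51, 17-53 and 17-56, with 2 kidneys sequenced per animal, and the comparison asks how the cortical transcriptome differs with the transgene. The series title names GGT in the transgene, and the promoter of γ-glutamyl transferase is known to be active in the proximal tubule, while the slice also holds other nephron segments, vessels and blood cells. The 3 HIF2aM3 names share the prefix 17, and the labels do not say whether it marks a single transgenic line. In such bulk RNA, fewer cells of a type and less RNA per cell cannot be told apart.

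Hexokinases trap glucose in the cell as a phosphate ester. Phosphofructokinase is a tetramer of L, M and P subunits, named for liver, muscle and platelet, and catalyses the committed step of glycolysis. The PFKFB enzymes set the level of fructose bisphosphate that activates it. HIF transcription factors, of which HIF2α is encoded by Epas1, raise many genes of glucose use in cells short of oxygen. The proximal tubule is known for making glucose and burning fatty acids, and has little hexokinase, whereas distal segments use glucose more.

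The shallowest library, kidney 2 of 17-51, held 4161829 counts and the other 11 held 24032148 to 43499743, and the 2 kidneys were summed per animal. Epas1, the mouse gene for HIF2α, was at 204 ± 30.9 CPM (counts scaled to a common library total; SD, n = 3 animals) in WT and 267 ± 16.7 CPM in HIF2aM3, higher in every animal but not past the threshold of 0.05 (edgeR, adjusted p = 0.0881). DESeq2 (adjusted p = 0.0102), voom on the 12 libraries (limma adjusted p = 0.0121) and edgeR without WT 2 (adjusted p = 0.0192) called it higher. These settings also called more genes in all (2038, 2795 and 1549, beside 733). No other alternative called Epas1, and with any other animal left out the edgeR adjusted p ran from 0.139 to 0.226. The labels do not say whether transgene reads are counted under Epas1. All 10 proximal tubule markers chosen to check the tissue were present (1 rose and 1 fell), and their summed level, 14799 to 16031 CPM in WT and 12989 to 14466 CPM in HIF2aM3, was the highest of the 8 marker lists.

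The 10 genes did not move as a block. Pfkp and Hk2 rose in HIF2aM3 cortex, none fell and 8 did not pass an adjusted p of 0.05 (edgeR quasi-likelihood test over all genes with Benjamini-Hochberg adjustment). Over the 19564 genes tested, 3.75% were called in either direction and 1.93% were called higher. All 10 genes passed the low count filter. The median log2 fold change of the 10 was -0.03, beside 0.005 for all genes tested, with 4 positive and 6 negative values. In 5 of the 10 (Hk1, Hk2, Pfkm, Pfkp and Pfkfb3) the animals of the genotypes did not overlap, where 32.0% of all tested genes were so separated. The threshold of 0.1 for the adjusted p, chosen after the values were seen, would add Hk1 and Pfkm, both lower in HIF2aM3, and 11.2% of all genes pass it. At an unadjusted p under 0.05 stood 5 of the 10, beside 24.9% of all genes.

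**Figure D1:**
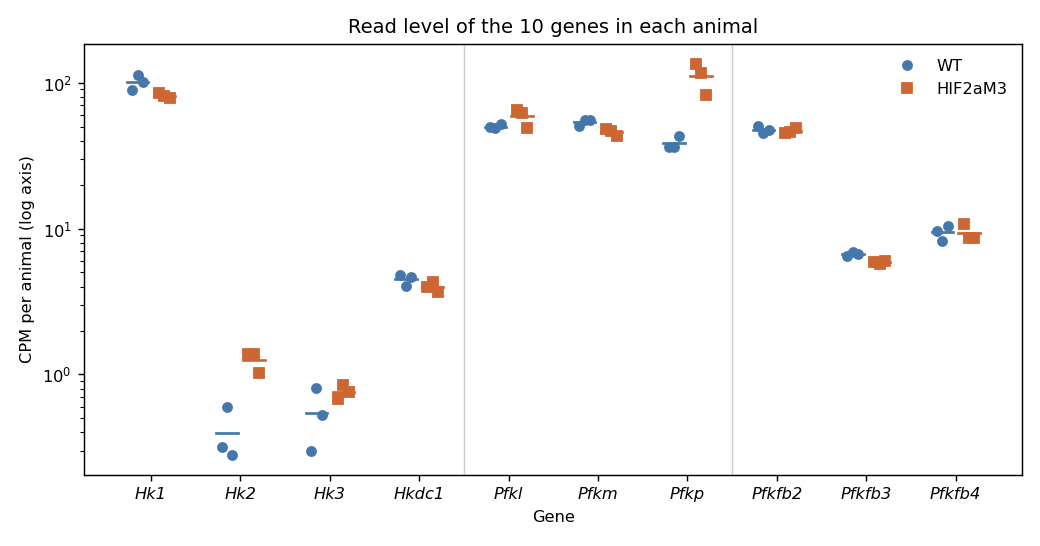
Level of each of the 10 genes in CPM (log axis) in the 3 WT animals (circles) and the 3 HIF2aM3 animals (squares), with lines at the group means. Pfkp lay at 36.2 to 43.2 CPM in WT and 82.3 to 135.5 CPM in HIF2aM3, and Hk2, also separated, reached at most 1.39 CPM.

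**Figure D2:**
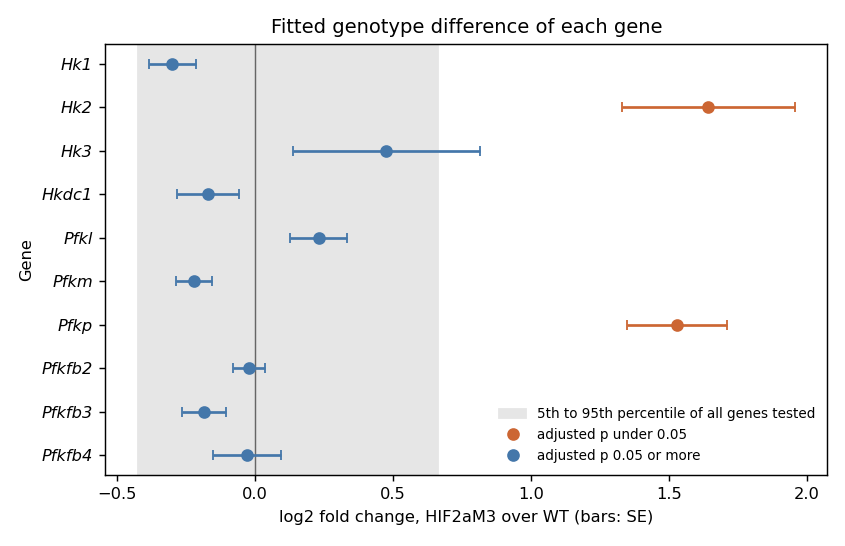
Fitted log2 fold change of HIF2aM3 over WT for each gene with its SE, the shaded band running from the 5th to the 95th percentile of all 19564 genes tested (-0.42 to 0.66). Only Hk2 and Pfkp lie beyond the band, and they are the genes past the threshold.

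Pfkp (ENSMUSG00000021196, chromosome 13), which encodes the platelet-type subunit, is shown first with the sequence before its transcription start, because it and Hk2 were the members that rose and HIF binds the core letters ACGTG and GCGTG. The 250 bases upstream of the RefSeq start are given 5′ to 3′ on the gene's strand (GRCm38.p6, minus strand, chr13:6648772-6649021), with every ACGTG or GCGTG on either strand in capitals.
Pfkp: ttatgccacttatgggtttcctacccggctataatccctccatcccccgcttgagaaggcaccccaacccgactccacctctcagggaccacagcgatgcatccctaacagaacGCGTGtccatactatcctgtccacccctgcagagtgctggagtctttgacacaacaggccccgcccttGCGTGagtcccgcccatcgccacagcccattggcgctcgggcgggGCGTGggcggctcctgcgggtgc
Its 3 upstream matches start at positions -136, -68 and -23 from the start, all GCGTG on the gene's strand, and another match lies at position 30 after it. Of 32851 promoter windows (250 bases before and 50 after a start) in RefSeq, 43.8% hold at least 1 match of either core, so a match alone describes the letters and not a bound site. Among the 17 windows of the 10 genes 15 hold a match, in genes that rose and in genes that did not.

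Pfkp was at 36.2, 36.3 and 43.2 CPM in WT 1, 2 and 3 and at 135.5, 117 and 82.3 CPM in HIF2aM3 17-51, 17-53 and 17-56. Every HIF2aM3 animal was above every WT animal, with 17-56 the lowest of its genotype. The means were 38.6 ± 4.004 and 112 ± 27.0 CPM (SD, n = 3), a log2 fold change of 1.53 ± 0.18 (SE), or 2.89-fold (edgeR adjusted p = 0.0177). In single kidneys WT libraries ran from 35.0 to 46.1 CPM and HIF2aM3 libraries from 79.2 to 135.8 CPM without overlap, and the largest difference between kidneys of an animal was 0.20 on the log2 scale. The call held with each of the 12 libraries left out in turn. It was lost without WT 1 (log2 fold change 1.48, edgeR adjusted p = 0.0637), without 17-51 (1.36, adjusted p = 0.0566) and without 17-53 (1.49, adjusted p = 0.0779), and held in the other 3 leave-outs of an animal. In the authors' deposited table Pfkp has a log2 fold change of 1.56 and a q-value of 0.000589, and Hk2 a log2 fold change of 1.68 and a q-value of 0.0205.

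Exons of Pfkp share 748 of 13401 bases with Pitrm1, a mitochondrial protease gene on the opposite strand, in the GENCODE M21 annotation, and reads there cannot be assigned without a stated strand setting. Pitrm1 itself was at 62.9 ± 3.63 CPM in WT and 63.6 ± 2.21 CPM in HIF2aM3 (log2 fold change 0.02 ± 0.06, SE, edgeR adjusted p = 0.894).

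Pfkl (ENSMUSG00000020277, chromosome 10), the liver-type subunit gene, was at 49.7, 48.8 and 51.8 CPM in WT and at 64.9, 62.4 and 49.1 CPM in HIF2aM3 17-51, 17-53 and 17-56. HIF2aM3 17-51 and 17-53 lay above all WT animals and 17-56 lay within them. The log2 fold change was 0.23 ± 0.10 (SE), which did not pass (edgeR adjusted p = 0.216). Without 17-56 it was 0.34 and passed (edgeR adjusted p = 0.0485), the only one of the 6 leave-outs of an animal in which Pfkl was called. Its single upstream core match, shown here, begins at position -99. Other members that were not called hold more upstream matches, with 3 at a Hk1 start, 3 at a Pfkfb3 start and 4 at a Pfkfb2 start. Some of these overlap on opposite strands, at -15 and -12 for Hk1, -53 and -52 for Pfkfb3 and -22 and -21 for Pfkfb2. The counts thus exceed the number of separate places.
Pfkl: ttgtagactgGCGTGcgctccgcct

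Pfkm (ENSMUSG00000033065, chromosome 15), the muscle-type subunit gene, pointed the other way from Pfkp. It was at 50.2, 55.5 and 55.4 CPM in WT and 48.4, 46.4 and 43.4 CPM in HIF2aM3, with no overlap. The log2 fold change of -0.22 ± 0.06 (SE) did not pass (edgeR adjusted p = 0.0911). It passed when the 12 libraries were fitted with the animal as a random effect (limma voom adjusted p = 0.0144), the 1 alternative that called it. Exons of Pfkm share 341 bases with Gm26513 on the same strand.

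**Figure D3:**
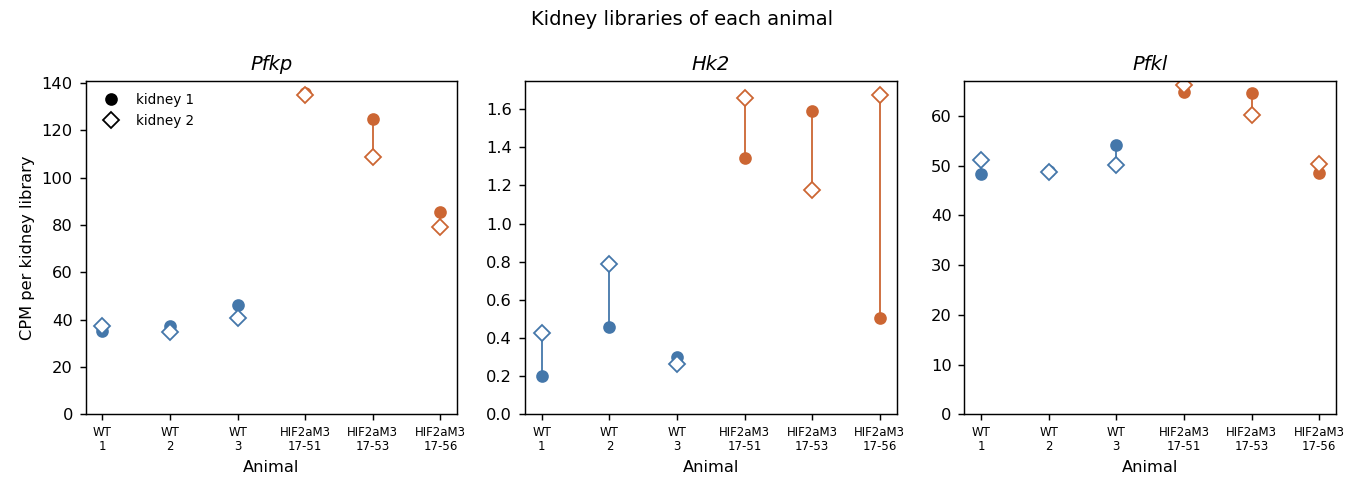
CPM of Pfkp, Hk2 and Pfkl in kidney 1 (filled circles) and kidney 2 (open diamonds) of each animal, joined by a line. The kidneys of an animal lie close together for Pfkp and Pfkl, while Hk2 in 17-56 runs from 0.507 CPM in kidney 1 to 1.67 CPM in kidney 2.

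Shares of the 3 subunit genes within an animal do not depend on library scaling. Counts were divided by the length of the principal transcript (4145 bases for Pfkp, 3730 for Pfkl and 2879 for Pfkm), and a share is a gene's part of the summed counts per kilobase. Pfkp made up 22.1, 21.3 and 23.9% in WT 1, 2 and 3 and 48.9, 46.2 and 41.3% in 17-51, 17-53 and 17-56. Its mean share was 22.4 ± 1.35% in WT and 45.5 ± 3.84% in HIF2aM3 (SD, n = 3), 23.0 percentage points higher. Pfkm held 45.1 ± 1.59% in WT and 27.6 ± 3.28% in HIF2aM3, and Pfkl 32.5 ± 1.09% and 26.9 ± 0.803%. The genotypes did not overlap for any of the 3, and the two-sided exact permutation test gave p = 0.1 for each, the smallest that 3 animals against 3 can give (0.143 adjusted over the 10 shares computed). In each family the shares add up to the whole, so a rise of 1 lowers the rest and the tests are not separate results. The level of Pfkl itself was not lower, at 50.1 ± 1.56 CPM in WT and 58.8 ± 8.49 CPM in HIF2aM3.

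Summed over the family, phosphofructokinase stood at 39.5, 41.1 and 43.6 CPM per kilobase in WT and 66.9, 61.0 and 48.1 in HIF2aM3, 1.42 times the WT mean with no overlap (exact permutation p = 0.1, 0.12 adjusted over 6 totals and ratios). The sum depends on the length used. With the union of exons the ratio was 1.17 (exact permutation p = 0.3) and with the longest transcript 1.22 (exact permutation p = 0.2), and in both 17-56 lay among the WT animals. Within an animal the ratio of Pfkp to Pfkl per kilobase was 0.692 ± 0.051 in WT and 1.69 ± 0.185 in HIF2aM3, and of Pfkp to Pfkm 0.499 ± 0.044 and 1.67 ± 0.321 (SD, n = 3; exact permutation p = 0.1 each). Pfkp was below both other subunits in every WT animal and above both in every HIF2aM3 animal on this scale.

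**Figure D4:**
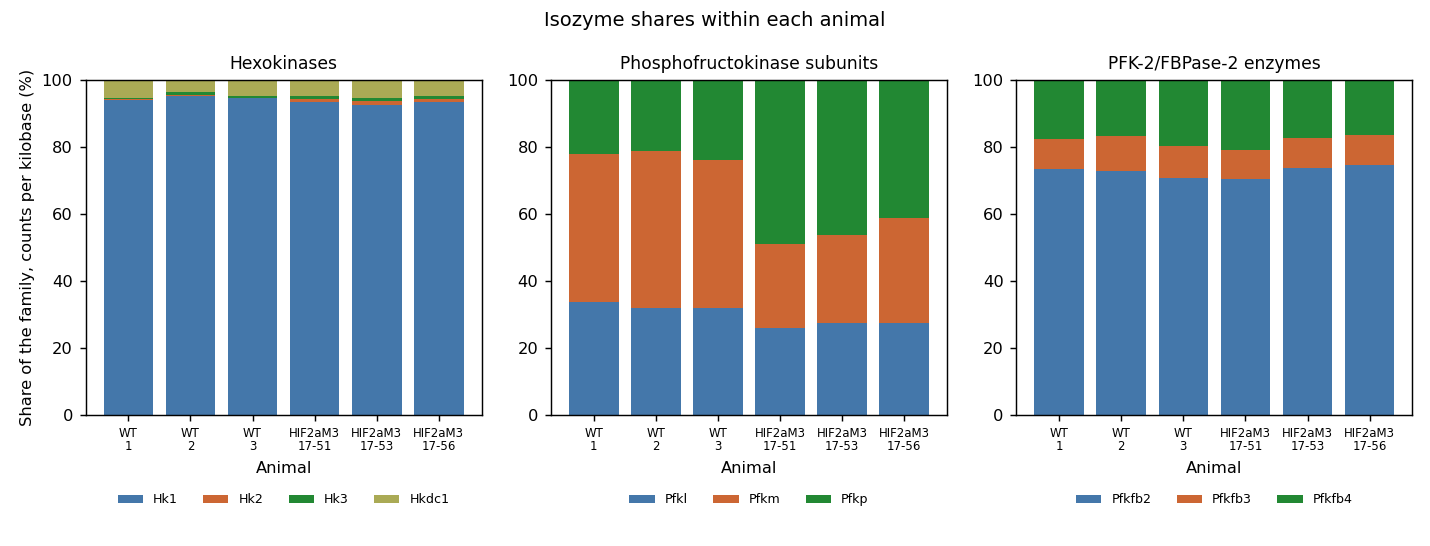
Share of each gene in its family's summed counts per kilobase (percent, stacked to 100) in each of the 6 animals. Pfkp takes 21.3 to 23.9% in the WT animals and 41.3 to 48.9% in the HIF2aM3 animals, while Hk1 takes at least 92.4% and Pfkfb2 at least 70.4% in every animal.

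Which subunit ranks first depends on the length used. In raw counts Pfkp had 7035 reads in WT and 19127 in HIF2aM3, against 9108 and 10262 for Pfkl and 9811 and 8026 for Pfkm. Dividing by the union of all exons, which is 13401 bases for Pfkp and 3340 for Pfkm, put Pfkp at 10.9 ± 0.772% in WT and 26.7 ± 3.18% in HIF2aM3, and Pfkm first in both at 60.7 ± 1.46% and 44.9 ± 3.64%. With the deposited RPKM Pfkl was first in both, at 53.5 ± 1.26% and 50.8 ± 0.709%, and Pfkp was at 10.2 ± 0.706% and 23.6 ± 2.43%. The share of Pfkp in HIF2aM3 was above that in WT without overlap under each of the 5 lengths tried. The share of Pfkl was lower in HIF2aM3 under 4 of them and 0.05 percentage points higher with the union of exons.

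**Figure D5:**
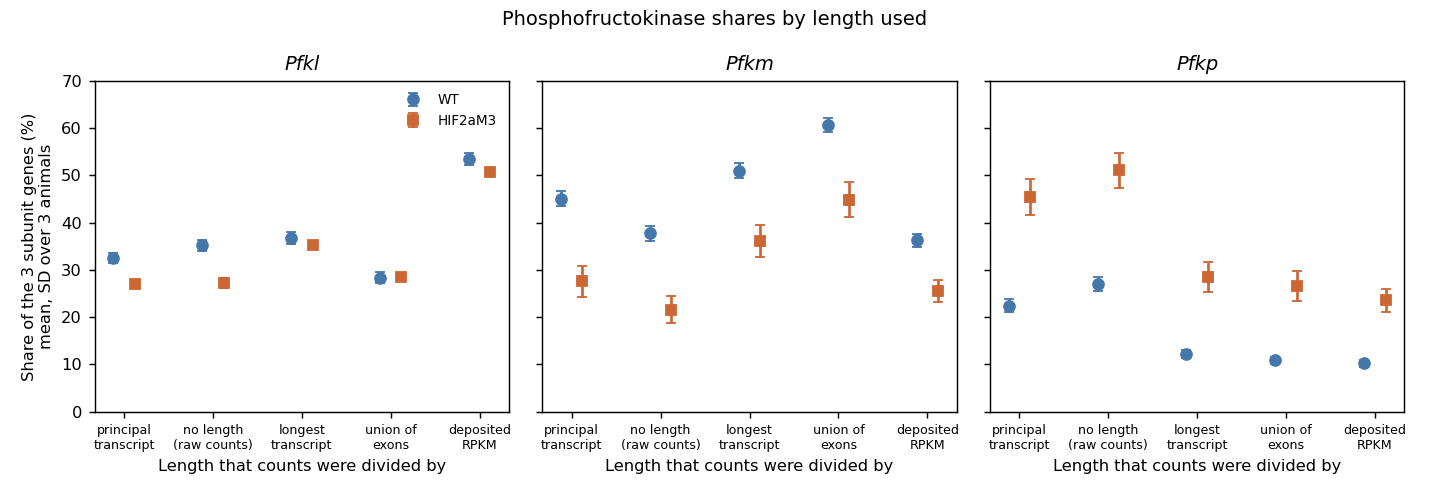
Mean share of Pfkl, Pfkm and Pfkp (percent, bars SD over 3 animals) in WT (circles) and HIF2aM3 (squares) under 5 choices of the length that counts are divided by. Pfkp is higher and Pfkm lower in HIF2aM3 under each choice, whereas the level of the shares, and which gene ranks first, shifts with the length.

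Among the hexokinases, Hk2 (ENSMUSG00000000628, chromosome 6) encodes the isozyme of muscle and fat that is a known HIF target and sits on mitochondria. Its upstream sequence is shown beside that of Pfkp as the other member that rose (GRCm38.p6, minus strand, chr6:82774455-82774704), with the cores in capitals.
Hk2: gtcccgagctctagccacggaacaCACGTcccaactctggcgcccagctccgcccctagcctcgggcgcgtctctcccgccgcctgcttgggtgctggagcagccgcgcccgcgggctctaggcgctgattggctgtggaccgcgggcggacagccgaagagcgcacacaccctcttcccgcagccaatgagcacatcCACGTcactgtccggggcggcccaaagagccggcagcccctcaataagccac
Both matches read CACGT, which is ACGTG on the opposite strand, at positions -226 and -52, and none is the GCGTG form found in Pfkp.

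Hk2 was scarce. It had 16, 40 and 18 reads in WT 1, 2 and 3 and 45, 119 and 58 in HIF2aM3 17-51, 17-53 and 17-56. In CPM with exact 95% Poisson intervals, which cover counting error only, these were 0.317 (0.181 to 0.514), 0.600 (0.428 to 0.817) and 0.279 (0.165 to 0.441) in WT. In HIF2aM3 they were 1.39 (1.01 to 1.85), 1.39 (1.15 to 1.66) and 1.02 (0.774 to 1.32). The animals of the genotypes did not overlap, and only the intervals of WT 2 and 17-56 did. The log2 fold change was 1.64 ± 0.31 (SE), or 3.12-fold (edgeR adjusted p = 0.0402), close in size to that of Pfkp at far lower level.

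The kidneys of an animal differed more for Hk2 than for Pfkp, by up to 1.72 on the log2 scale in 17-56, whose kidney 1, at 0.507 CPM, lay among the WT libraries (0.201 to 0.786 CPM). The call was lost without kidney 2 of WT 1 (log2 fold change 1.70, edgeR adjusted p = 0.0543), kidney 1 of WT 2 (1.57, adjusted p = 0.0686) or kidney 2 of 17-56 (1.46, adjusted p = 0.107). Of the 6 leave-outs of an animal only that of WT 2 kept it (2.07, edgeR adjusted p = 0.0116). The others gave 1.504 without WT 1, 1.42 without WT 3, 1.58 without 17-51, 1.56 without 17-53 and 1.78 without 17-56, with adjusted p from 0.0666 to 0.138. With each kidney alone the call was lost too (edgeR adjusted p = 0.077 for kidney 1 and 0.0914 for kidney 2). With a pseudocount of 1 RPKM the limma estimate shrank to 0.12, since the gene lies far below that pseudocount.

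Hk1 (ENSMUSG00000037012, chromosome 10), which encodes the hexokinase found in most tissues, made up nearly all hexokinase RNA. It was at 89.6, 112 and 100.5 CPM in WT and 85.8, 81.2 and 78.5 CPM in HIF2aM3, with no overlap between genotypes. The log2 fold change of -0.30 ± 0.09 (SE) did not pass (edgeR adjusted p = 0.0883), while DESeq2 (adjusted p = 0.0227) and the fit of 12 libraries (limma voom adjusted p = 0.0167) called it. Exons of Hk1 share 157 bases with the antisense gene Hk1os, which reached at most 0.525 CPM in any animal.

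Hk3 (ENSMUSG00000025877, chromosome 13), a hexokinase gene of myeloid cells, was scarce too, at 0.297, 0.810 and 0.527 CPM in WT and 0.677, 0.850 and 0.756 CPM in HIF2aM3. In every HIF2aM3 animal it was below Hk2 in CPM. Per kilobase of the principal transcript Hk3 was above Hk2 in 17-53 (0.264 against 0.251) and 17-56 (0.235 against 0.185) and below it in 17-51 (0.210 against 0.251). The genotypes overlapped (log2 fold change 0.48 ± 0.34, SE, edgeR adjusted p = 0.421). The 10 myeloid markers summed to 65.5 to 115 CPM in WT and 108 to 144 CPM in HIF2aM3. Of these markers 1 rose (Csf1r, the macrophage growth factor receptor gene), beside 1.93% of all tested genes called higher. None fell and none was at 0 in all libraries. The part of myeloid cells in Hk3 was not tested. Hkdc1 (ENSMUSG00000020080, chromosome 10), a hexokinase-like gene beside Hk1 in the genome, was at 4.48 ± 0.397 CPM in WT and 3.97 ± 0.315 CPM in HIF2aM3 and did not pass (log2 fold change -0.17 ± 0.11, SE, edgeR adjusted p = 0.385).

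Hk1 held 94.5 ± 0.595% of hexokinase counts per kilobase in WT and 93.0 ± 0.532% in HIF2aM3 (SD, n = 3), 1.46 percentage points lower. The difference was -4.85 percentage points in the deposited RPKM (80.9 and 76.1%), -2.57 with the union of exons and -2.47 with kidney 2 alone, and with kidney 1 alone (-0.986) the genotypes overlapped. Hk2 held 0.232, 0.355 and 0.183% in WT and 1.05, 1.10 and 0.847% in HIF2aM3, and so stayed a small part of the family after its rise. Hk3 held 0.595 ± 0.224% and 1.04 ± 0.141%, and Hkdc1 4.67 ± 0.883% and 4.94 ± 0.342%. The genotypes were apart for Hk1, Hk2 and Hk3 but not for Hkdc1 (exact permutation p = 0.1, 0.1, 0.1 and 0.8). For Hk3 the nearest animals were WT 2 (0.820%) and 17-51 (0.881%, from 22 reads). With kidney 1 alone and with kidney 2 alone the Hk3 shares of the genotypes overlapped. The summed hexokinases stood at 24.8, 30.7 and 27.6 CPM per kilobase in WT and 23.9, 22.8 and 21.8 in HIF2aM3, a ratio of means of 0.825 (exact permutation p = 0.1, 0.12 adjusted over 6). In the deposited RPKM the ratio was 0.872 and the genotypes overlapped (exact permutation p = 0.2).

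Of the enzymes of the phosphofructokinase activator, Pfkfb2 (ENSMUSG00000026409, chromosome 1), the heart-type form, was at 50.4, 45.1 and 47.3 CPM in WT and 45.6, 45.9 and 49.0 CPM in HIF2aM3. The genotypes overlapped and the log2 fold change was -0.02 ± 0.06 (SE, edgeR adjusted p = 0.847), the smallest in size of the 10. Pfkfb3 (ENSMUSG00000026773, chromosome 2), the inducible form known as a HIF target, was at 6.47, 6.88 and 6.68 CPM in WT and 5.91, 5.69 and 6.03 CPM in HIF2aM3. All HIF2aM3 animals were below all WT animals, and the log2 fold change of -0.19 ± 0.08 (SE) did not pass (edgeR adjusted p = 0.193). In single kidneys the genotypes overlapped, at 5.46 to 7.885 CPM in WT and 5.20 to 7.13 CPM in HIF2aM3. The kidneys of an animal differed by up to 0.474 on the log2 scale for Pfkfb3. Pfkfb4 (ENSMUSG00000025648, chromosome 9), another HIF target, was at 9.58, 8.22 and 10.4 CPM in WT and 10.7, 8.58 and 8.56 CPM in HIF2aM3 (log2 fold change -0.03 ± 0.12, SE, edgeR adjusted p = 0.909). Pfkfb2 shares 1262 exon bases on the same strand with Gm29427 and 154 on the opposite strand with Yod1, so its value is uncertain. Pfkfb2 made up 72.2 ± 1.39% of this family in WT and 72.9 ± 2.26% in HIF2aM3, Pfkfb4 18.1 ± 1.56% and 18.3 ± 2.29%, and Pfkfb3 9.70 ± 0.804% and 8.74 ± 0.0329% (exact permutation p = 0.6, 1 and 0.1). With kidney 1 alone and with kidney 2 alone the Pfkfb3 shares of the genotypes overlapped. The summed level of the family was 14.9 ± 0.769 and 14.5 ± 0.397 CPM per kilobase (exact permutation p = 0.5).

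Ordered by CPM per kilobase of the principal transcript, WT cortex ran from Hk1 (26.2 ± 2.95) through Pfkm (18.6 ± 1.05), Pfkl (13.4 ± 0.419), Pfkfb2 (10.8 ± 0.597) and Pfkp (9.30 ± 0.966) to Pfkfb4 (2.70 ± 0.323). Pfkfb3 (1.44 ± 0.044), Hkdc1 (1.27 ± 0.113), Hk3 (0.169 ± 0.080) and Hk2 (0.072 ± 0.032) closed the order. In WT the animals of neighbours in this order overlapped for Pfkfb2 and Pfkp and for Hk3 and Hk2 and for no other neighbours. In HIF2aM3 Pfkp moved from the fifth place to the first, at 26.9 ± 6.51 CPM per kilobase, though its animals overlapped those of Hk1 (21.3 ± 0.955). In HIF2aM3 Pfkm and Pfkl (16.0 ± 0.872 and 15.8 ± 2.28) overlapped too, as did Hk3 and Hk2. With the union of exons or the longest transcript Pfkp ranked 5 in WT and 4 in HIF2aM3, and in the deposited RPKM 5 and 3. The first place in WT depends on the length as well. With the union of exons Hk1 ranked 2 in WT, below Pfkm (11.8 against 16.1). In the deposited RPKM Hk1 ranked 3 in WT (3.05), below Pfkl (8.30) and Pfkm (5.65).

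Genes around these steps were taken from lists chosen for their role. Of 16 partners that make, use or split the same sugar phosphates, 14 could be tested and none passed in either direction (median log2 fold change -0.06, beside 0.005 for all genes). Without WT 2, 1 gene of this list, Tigar, fell, where 1549 of 19679 genes were called in either direction. In edgeR 3 of the 14 had an unadjusted p under 0.05, all lower, beside 24.9% of all genes in either direction. DESeq2 called 1 of the list lower, beside 2038 of 18903 genes called in either direction. Voom on the 12 libraries also called 1 lower, beside 2795 of 18164 genes. The member of this list with the smallest p was Slc37a4, the glucose phosphate transporter gene of glucose-making cells. It was at 322 ± 37.6 CPM in WT and 256 ± 14.0 CPM in HIF2aM3 (edgeR adjusted p = 0.0849). Fbp1, Tigar, Aldoc, Ldha and Slc2a1 are named for their role, with their values seen. Fbp1, which reverses the phosphofructokinase step, was at 1090 ± 18.3 and 943 ± 94.8 CPM and did not pass (edgeR adjusted p = 0.183). Tigar, another gene of this list, was at 12.4 ± 1.51 and 10.4 ± 0.654 CPM (edgeR adjusted p = 0.202).

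Of 16 genes of lower glycolysis 3 fell, none rose and 13 did not pass (median log2 fold change -0.06), beside 1.82% of all genes called lower. They were Eno1, an enolase gene (-0.48 ± 0.09, SE), Pgam1 (-0.35 ± 0.07) and Pgam2 (-0.55 ± 0.11), which encode phosphoglycerate mutases, with edgeR adjusted p = 0.0343, 0.0432 and 0.0451. Eno1 and Pgam1 have near-identical copies in the genome and are uncertain. The count of 3 fell to 1 without WT 1, without kidney 1 of WT 3 or without kidney 1 of 17-56, and to 0 without WT 3, 17-51, 17-53 or 17-56. It was 1 with kidney 2 alone and 0 in limma on RPKM with either pseudocount. DESeq2 also called Aldoc, an aldolase gene, higher. Voom on the 12 libraries called 1 gene of this list higher too, where 2795 of 18164 genes were called in either direction. Ldha, the lactate dehydrogenase gene known as a HIF target, was at 266.5 ± 27.0 and 311 ± 24.97 CPM and did not pass (edgeR adjusted p = 0.192). Of 8 glucose transporter genes none passed in edgeR. Of the 8, 1 had an unadjusted p under 0.05, beside 24.9% of all genes, and DESeq2 called 1, beside 2038 of 18903 genes. Voom on the 12 libraries also called 1 of the 8, beside 2795 of 18164 genes. The transporter gene with the smallest p was Slc5a1, a sodium-glucose cotransporter gene, at 72.6 ± 13.1 and 51.7 ± 6.00 CPM (edgeR adjusted p = 0.0948). Slc2a1, whose transporter GLUT1 is a known HIF target, was at 42.0 ± 2.51 and 42.7 ± 4.09 CPM.

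Markers of other cortical cells differed between genotypes beside these values. The 10 collecting duct markers summed to 826 to 850.5 CPM in WT and 542 to 653 CPM in HIF2aM3. Of these markers 4 were lower and none higher, beside 1.82% of all tested genes called lower. The 6 markers of the thick limb and distal tubule summed to 3632 to 4658 and 3155 to 3489 CPM with none passing. The 8 endothelial markers summed to 267.5 to 375 and 431 to 443 CPM. Of these 3 were higher and none lower, beside 1.93% of all tested genes called higher. The 4 podocyte, 3 erythrocyte and 4 muscle markers that could be tested gave no call, and the genotypes overlapped in each of these 3 sums. Of all markers Myh4, a skeletal muscle myosin gene, was at 0 in WT (0.00586 CPM in HIF2aM3), and no marker of the other lists was at 0 in all libraries. The part of these cells in the levels of Hk1, Hk2, Pfkm and Pfkp was not tested.

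Over the 12 libraries, which share animals and fall into the 2 genotypes, the genes whose log2 CPM was most like that of Pfkp were Kif26a, Ipo5 and Lactbl1 (Pearson r = 0.993, 0.992 and 0.990), and for Hk2 they were Ier5, Marcksl1 and Ltbp4 (0.982, 0.955 and 0.954). These values are descriptions of the same libraries and carry no test. Pfkp and Hk2 had r = 0.810 with each other.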

How the data were processed

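RNA of 12 kidney cortex libraries from 6 animals was sequenced from TruSeq libraries and mapped to mouse build mm9, per the submitters' processing notes and the labels. The sources used here do not name the aligner, counting program, annotation release or strand use. The authors deposited read counts per gene and RPKM in each library, per the file headers. The authors' deposited table also holds a log2 fold change and a q-value for the genotypes. The deposited RPKM divides by a length that is mostly near the summed length of all annotated transcripts of a gene (median ratio 1.106 over 24630 genes). This lowers genes with many transcripts. Some members depart from it in either direction. The length implied by the RPKM was 5988 bases for Pfkl, against 9706 summed, and 32901 bases for Hk1, against 25944 summed. Symbols were found for 24630 of 27412 Ensembl IDs.

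Counts were summed over the 2 kidneys of an animal and tested with edgeR 4.0.16 (filterByExpr, TMM factors, robust quasi-likelihood F test, R 4.3.3), with Benjamini-Hochberg adjustment over 19564 genes and a threshold of 0.05. Shares used the principal transcript length of GENCODE M21 (GRCm38) and two-sided exact permutation tests. Promoter sequences came from RefSeq (GRCm38.p6), with all 10 genes matched. Alternatives were DESeq2 1.42.0, limma 3.58.1 on log2(RPKM + 0.1) and log2(RPKM + 1), voom on 12 libraries with the animal as a random effect, other filters and scalings, kidneys alone and left-out animals. Left-out libraries, the union and longest transcript lengths, and every other length for family totals and the order of levels were chosen after seeing the data. Named genes were the 10 members, Epas1, the genes past the threshold (or the smallest p) in each list, and the 3 most alike of each called member, and others were added with their values seen (Fbp1, Tigar, Aldoc, Ldha and Slc2a1 for their role, Pitrm1, Hk1os, Yod1, Gm26513 and Gm29427 for shared exon bases, Csf1r and Myh4 as markers). The members and lists were chosen with earlier results of these data known. The scripts were tested on simulated data. One gene of the lists is not reported here.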

Additional observations from a re-analysis of the deposited data

Results flagged for a closer look

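Hkdc1 differed between the kidneys of an animal in opposite directions in the genotypes. Kidney 2 minus kidney 1 was -0.07, -0.12 and -0.22 (log2 CPM) in WT 1, 2 and 3, and 0.38, 0.16 and 0.27 in HIF2aM3 17-51, 17-53 and 17-56, so that the means differed by 0.403. The difference was not tested. The labels do not say whether kidney 1 is the same side in each animal. Hkdc1 was the 1 gene of the 10 with such a pattern. How many of all genes show it was not counted, so it cannot be called unusual. The value of 17-51 rests on the shallowest library, its kidney 2, with 4161829 counts. By the rule used, no library was flagged as far from the others in the 20 sets of 6 libraries examined. Even so, Hk2 was at 0.507 CPM in kidney 1 of 17-56, beside 1.17 to 1.67 CPM in the other HIF2aM3 libraries.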

How the results depend on the processing

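The 2 calls among the 10 genes became 1 with kidney 1 alone, kidney 2 alone, a mean of at least 1 CPM (where Hk2 was not tested) and limma on RPKM with either pseudocount, 3 in DESeq2 and 4 with voom on 12 libraries. The call lost with either kidney alone was Hk2. The number of calls ranged from 0 to 2 with an animal left out and from 1 to 2 with a library left out. The 733 genes called over the table became 337 with kidney 2 alone, 2038 in DESeq2, 140 and 114 in limma on RPKM + 0.1 and + 1, and 2795 in voom. They ranged from 11 to 1549 with an animal and from 479 to 1078 with a library left out. Pfkp was called in 25 of 28 alternatives and Hk2 in 15 of 27. The Hk2 share difference of 0.744 percentage points became 1.065 in raw counts, 3.02 in RPKM, 0.875 in kidney 2 and 1.45 with union exons. That of Pfkp, 23.0, became 13.4 in RPKM, 15.8 with union exons and 16.4 with the longest transcript.

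Several signs turned. In log2 fold change, kidney 2 alone gave 0.0496 for Hkdc1, 0.0035 for Pfkfb2 and 0.0048 for Pfkfb4. Limma on RPKM + 0.1 and + 1 gave 0.0252 and 0.0176 for Pfkfb2 and 0.0012 and 0.00085 for Pfkfb4. With an animal left out Pfkfb2 ranged from -0.0669 to 0.0106 and Pfkfb4 from -0.142 to 0.048, and without kidney 1 of 17-51 Pfkfb2 gave 0.0067. In share differences with an animal left out, Hkdc1 ranged from -0.185 to 0.694, Pfkfb2 from -0.128 to 2.02 and Pfkfb4 from -1.07 to 1.11. Pfkl gave 0.0497 with union exons, and Pfkfb4 -0.0663 in RPKM and -0.515 in kidney 1. The summed PFKFB level in HIF2aM3 over WT, 0.974, was 1.005 in RPKM. The cause was not tested. No paired analysis was possible because the genotypes share no replicate numbers. Depth limits Hk2 and Hk3, and 3 animals per genotype limit every test.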
